A study of Mus musculus with 32 samples.

Results

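The regions described here are the open chromatin sites of the BMP pathway in the mouse limb bud, with the Grem1-Fmn1 locus on chromosome 2 at their centre. They belong to 10 genes: the ligands Bmp2, Bmp4 and Bmp7, the receptor Bmpr1a, the antagonists Grem1 and Nog, the target genes Msx1, Msx2 and Id1, and Fmn1, the gene next to Grem1. ATAC-seq summits from 32 libraries were taken if they lay in the body of one of these genes or within 50 kb of it and their nearest protein-coding start belonged to one of the 10, and all summits inside Fmn1 were added. Of 1234971 summits, 1553 met this rule. On 1 set of 200-bp intervals made over all lists they fell into 149 regions listed in at least 2 libraries, of 133163 such intervals in the genome, and 45 more were listed in 1 library only. Of the 149 regions, 29 lay within 1 kb of a start (promoter regions) and 120 were distal. Fmn1 held 25 regions, Bmp7 24, Grem1 19, Msx1 16, Bmp4 15, Bmp2 14, Nog 12, Msx2 9, Bmpr1a 8 and Id1 7.

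All libraries came from mouse limb buds, and the study asked how the ETS factor ETV2 affects chromatin there. The groups E10.5 HL EYFP+ (n = 3) and, for the forelimb, E10.5 FL EYFP+ (n = 3) were cells of Etv2-EYFP transgenic embryos, in which the Etv2 promoter drives EYFP, sorted as EYFP-positive and negative for CD31, TIE2 and CD45. E10.5 CKO (n = 2) and E10.25 CKO (n = 5) were posterior hindlimb cells of HoxB6-Cre Tg/+; Etv2 fl/- embryos, in which Cre acts in the lateral plate and the whole hindlimb field. E10.25 WT (n = 2) were posterior hindlimb cells of wild-type embryos, and E9.5 HL (n = 1) were wild-type hindlimb cells. E10.5 Posterior (n = 1) were EGFP-positive posterior hindlimb cells of Shh-EGFP embryos and E10.5 Anterior (n = 1) were anterior hindlimb cells of the same line, which carries the reporter in the Shh locus. Etv2OE anterior and Etv2OE posterior (n = 3 each, from 3 embryos) came from embryos with HoxB6-Cre Tg/+, ROSA26-STOP-rtTA-IRES-EGFP Tg/+ and iHA-Etv2 Tg/+ given doxycycline through the dam, which switches on HA-tagged ETV2 in the HoxB6 lineage. Control anterior and Control posterior (n = 4 each, from 4 embryos) are labelled wild-type controls and came from embryos without induction of Etv2. The study's text describes controls once as HoxB6-Cre +/+ embryos with the other transgenes and once as littermates without iHA-Etv2 or rtTA, and doxycycline was given to the pregnant dams, so control littermates were exposed to it as well. The labels put both sets at E10.5, whereas the methods describe a later harvest of overexpressing embryos, so the stage of these 14 libraries is uncertain beside the E10.5 groups. The E10.5 HL EYFP+ cells were sorted and the E10.5 CKO cells were described as unsorted, so the sort and the loss of Etv2 cannot be told apart in that comparison.

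Each library was deposited as a list of summits with a score, the -log10 of the q-value. The lists held 13763 to 54676 summits, with no read counts analysed here. Sequencing depth is therefore unknown, and an unlisted region means only that no summit was called there. Scores were therefore used only to rank summits within a list, and a rank is given below as a percentage of the list's length, where a low value is a high rank. The lists held 14 to 70 of the regions (median 56), of which 3 to 19 were promoter regions and 11 to 57 distal. The E10.5 Anterior list was the shortest and held the fewest of them, 14. Of 7 limb mesenchyme markers, among them Prrx1, Twist1 and Tbx3, every library but E10.5 Anterior had 4 to 7 promoters listed, and E10.5 Anterior had 2. Of 6 endothelial markers, Pecam1, Cdh5 and Tie1 promoters were listed in 0 of 32 libraries, Tek in 4, Erg in 22 and Kdr in all 32. Of 5 blood markers, Ptprc and Spi1 were listed in 0 libraries, Gata1 in 1, Hbb-y in 4 and Tal1 in 14. The hindlimb genes Pitx1 and Tbx4 were listed in every E10.5 HL EYFP+ library and absent from E10.5 FL EYFP+ replicates 1 and 2, but replicate 3 of the forelimb group listed both. The promoter of the forelimb gene Tbx5 was listed only in E10.5 FL EYFP+ replicate 3 and E10.5 HL EYFP+ replicate 3. Each of these libraries thus listed markers of both limbs, and results between the limbs are also given without them.

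BMP ligands bind pairs of type I and type II receptors such as BMPR1A, which phosphorylate SMAD proteins that then switch on targets such as Id1, Msx1 and Msx2. In the limb bud BMPs restrain the apical ectodermal ridge and promote digit formation and cell death, and the secreted antagonist GREM1 binds BMPs and keeps the ridge signalling while SHH is produced at the posterior margin. Limb expression of Grem1 depends on regulatory sequence within its neighbour Fmn1, which encodes an actin regulator, and deletions in Fmn1 are known for disturbing Grem1 rather than Fmn1 function. Nog encodes another antagonist of BMPs, which acts mainly later in cartilage.

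Grem1 lies on the minus strand at chr2:113746164-113758646 (mm10) and Fmn1 on the plus strand at chr2:113327736-113716767, so the 389-kb body of Fmn1 spans 41.9 to 431 kb from the Grem1 start. Together the 2 genes hold 44 regions, 36 of them distal, and these distal sites are named below by their distance from the Grem1 start. The sequences of 4 of them are shown. The 65.2-kb, 118-kb and 182.5-kb sites carried differences called below, and the 34.0-kb site had one just short of the threshold. The 65.2-kb site (chr2:113693390-113693589), the 118-kb site (chr2:113640933-113641132) and the 182.5-kb site (chr2:113576037-113576236) lie in introns of Fmn1, and the 34.0-kb site (chr2:113724569-113724768) lies between the 2 genes. Sequences are the plus strand of GRCm38.p6, the assembly behind mm10, from 5' to 3', with capitals for a word of the posterior HOX type (TTTATTG or TTTATGG, here in reverse complement) or an E-box CATCTG.
65.2-kb site: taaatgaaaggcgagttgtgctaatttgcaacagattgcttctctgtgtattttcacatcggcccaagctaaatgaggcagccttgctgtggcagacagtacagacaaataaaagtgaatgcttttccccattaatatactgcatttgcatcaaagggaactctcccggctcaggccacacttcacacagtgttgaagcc
118-kb site: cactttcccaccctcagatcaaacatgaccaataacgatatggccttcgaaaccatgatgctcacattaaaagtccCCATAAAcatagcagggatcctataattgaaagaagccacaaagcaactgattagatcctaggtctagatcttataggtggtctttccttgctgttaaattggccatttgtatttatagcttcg
182.5-kb site: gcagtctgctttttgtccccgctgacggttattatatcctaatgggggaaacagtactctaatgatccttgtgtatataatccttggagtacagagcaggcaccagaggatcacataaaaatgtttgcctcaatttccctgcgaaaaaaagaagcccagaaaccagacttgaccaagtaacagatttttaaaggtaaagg
34.0-kb site: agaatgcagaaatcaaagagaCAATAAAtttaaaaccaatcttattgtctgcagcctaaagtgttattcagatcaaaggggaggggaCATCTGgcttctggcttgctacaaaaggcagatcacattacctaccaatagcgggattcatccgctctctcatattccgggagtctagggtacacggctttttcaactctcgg

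Outside this locus 3 distal sites are shown for their part in the results on the other genes. They are a site 46.1 kb upstream of Bmp4 (chr14:46436670-46436869, between genes), a site 6.32 kb downstream of the Bmp7 start (chr2:172933903-172934102, intron) and a site 1.09 kb upstream of Id1 (chr2:152735061-152735260, between genes). Capitals mark an ETS word AAGGAAAT and the BMP-SMAD word GGCGCC.
Bmp4 -46.1-kb site: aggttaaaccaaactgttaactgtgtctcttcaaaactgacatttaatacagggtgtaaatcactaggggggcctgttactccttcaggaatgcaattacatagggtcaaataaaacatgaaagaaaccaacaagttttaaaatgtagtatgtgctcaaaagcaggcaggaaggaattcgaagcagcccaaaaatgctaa
Bmp7 +6.32-kb site: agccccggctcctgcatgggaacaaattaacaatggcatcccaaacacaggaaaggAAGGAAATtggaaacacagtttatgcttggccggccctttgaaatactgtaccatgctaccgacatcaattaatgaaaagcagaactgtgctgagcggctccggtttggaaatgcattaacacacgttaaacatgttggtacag
Id1 -1.09-kb site: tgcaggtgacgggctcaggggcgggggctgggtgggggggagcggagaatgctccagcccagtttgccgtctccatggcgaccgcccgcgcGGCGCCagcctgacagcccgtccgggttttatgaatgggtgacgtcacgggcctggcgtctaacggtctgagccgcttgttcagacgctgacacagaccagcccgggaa

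Words were searched on both strands of every 200-bp interval, and a match is a description of the sequence and not a binding site. The posterior HOX words TTTATTG and TTTATGG were present in 7 of the 36 distal Grem1-Fmn1 sites (19.4%) and in 11.2% of the 104403 distal intervals of the genome. The ETS words searched for ETV2 were AAGGAAGT, CAGGAAGT, GAGGAAGT, AAGGAAAT, CAGGAAAT and GAGGAAAT. They were present in 1 of the 36 sites (2.78%) against 10.8% of all distal intervals, and in none of the 65.2-kb, 118-kb, 182.5-kb and 34.0-kb sites. The single Grem1-Fmn1 site with an ETS word lay 183.1 kb from the Grem1 start. The BMP-SMAD word GGCGCC was present in 0 of the 36 sites and in 11 of the 84 distal sites of the other 8 genes (13.1%), against 3.47% of all distal intervals. These 84 sites also had a higher median GC content, 55.5% against 48.5% over all distal intervals and 45.0% over the 36 sites, and the part of base composition in the word counts was not tested. The GLI word TGGGTGGTC was found in 0 of the 36 sites, the homeodomain word TAATTA in 1 and the E-box CATCTG in 8 (22.2%), where the E-box was in 20.6% of all distal intervals.

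Promoters of these genes were listed in most libraries, and the Fmn1 promoter had the highest median rank of the 10. For comparison, each library listed a promoter summit for 38.5% to 63.6% of 21840 genes (median 59.2%). An Fmn1 promoter summit was listed in 32 of 32 libraries, and its region 51 bp upstream of the start ranked between 0.258% and 19.1% of the list with a median of 1.10%. Bmpr1a was also listed in 32 libraries, Bmp7 and Id1 in 31, Bmp2 and Msx2 in 30 and Msx1 in 29. The median rank of their best promoter summit lay between 34.4% for Id1 and 48.0% for Bmp2, so these promoters sat in the middle of the lists. The Grem1 promoter was listed in 26 libraries at a median of 51.5%, the Bmp4 promoter in 20 at 76.6% and the Nog promoter in 21 at 82.9%. Nog and Bmp4 promoters thus had the lowest median ranks of the 10. The Bmp4 promoter was listed in all 7 E10.25 libraries and in 7 of the 8 Control libraries, at 74.7% to 93.7%, but in 1 of the 6 Etv2OE libraries, at 98.0%. Over all genes, Etv2OE libraries listed a promoter summit for 54.5% to 59.1% and Control libraries for 58.6% to 62.2%. The Etv2OE lists were shorter, 32666 to 47051 summits against 40945 to 54676, and the part of list length in this count was not tested. E10.5 Anterior listed 2 of the 10 promoters, Fmn1 and Bmpr1a.

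**Figure D1:**
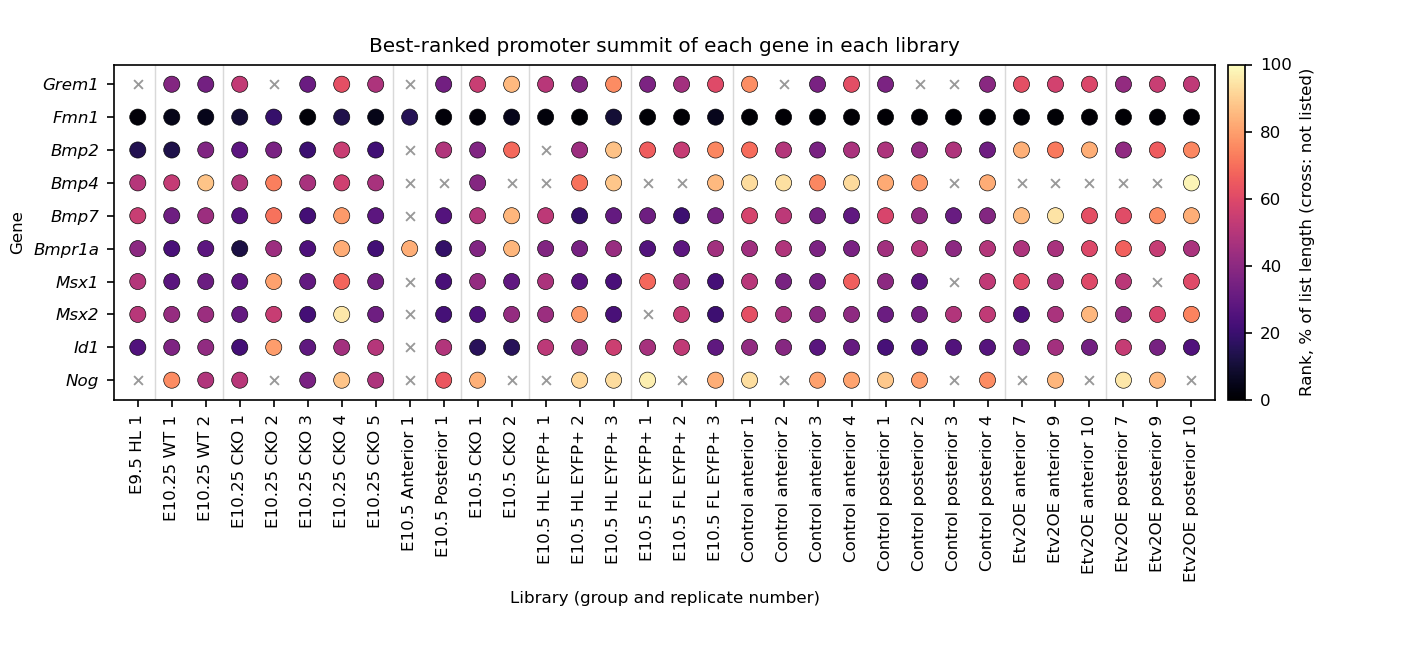
Rank of the best-ranked promoter summit (within 1 kb of a start) of each of the 10 genes in each of the 32 libraries, as a percentage of the list's length (dark is a high rank, a cross is not listed). The Fmn1 row is dark in all 32 libraries, and crosses gather in the Nog and Bmp4 rows and in the E10.5 Anterior column.

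In the Grem1-Fmn1 locus 3 distal sites were listed in 30 of the 32 libraries: the 65.2-kb site, the 83.8-kb site and a site at 261 kb (chr2:113497982-113498181), all in introns of Fmn1. The 261-kb site was among the best ranked of all in E10.5 CKO, at 1.76% and 1.36%, and in E10.5 HL EYFP+, at 2.97%, 5.17% and 7.52%. In the Control libraries it ranked lower, from 23.7% to 44.1%, and in the Etv2OE libraries from 31.1% to 82.4%. The sorted and the unsorted E10.5 hindlimb cells thus both placed this site near the top, and the 14 Control and Etv2OE libraries did not reach those ranks. The 83.8-kb site had a median rank of 24.4%, was highest in Control anterior replicate 2 at 7.25% and was not listed in E9.5 HL and E10.25 CKO replicate 2. A site at 343 kb (chr2:113415540-113415739) showed another distribution: it was listed in E9.5 HL at 25.9%, in both E10.5 CKO libraries at 18.4% and 59.5%, in 4 of 5 E10.25 CKO libraries and in E10.5 Posterior at 77.6%. It was listed in 0 of the 6 EYFP+, 0 of the 2 E10.25 WT and 0 of the 14 Control and Etv2OE libraries. Over the 36 distal sites, E10.25 CKO libraries listed 3 to 13 (median 9), the E10.25 WT libraries 12 and 16, the E10.5 HL EYFP+ libraries 12 to 19 and the Control posterior libraries 19 to 23. List length differed too, from 15626 to 42742 summits in E10.25 CKO and from 51265 to 54676 in Control posterior. The part of list length in these counts was not tested.

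**Figure D2:**
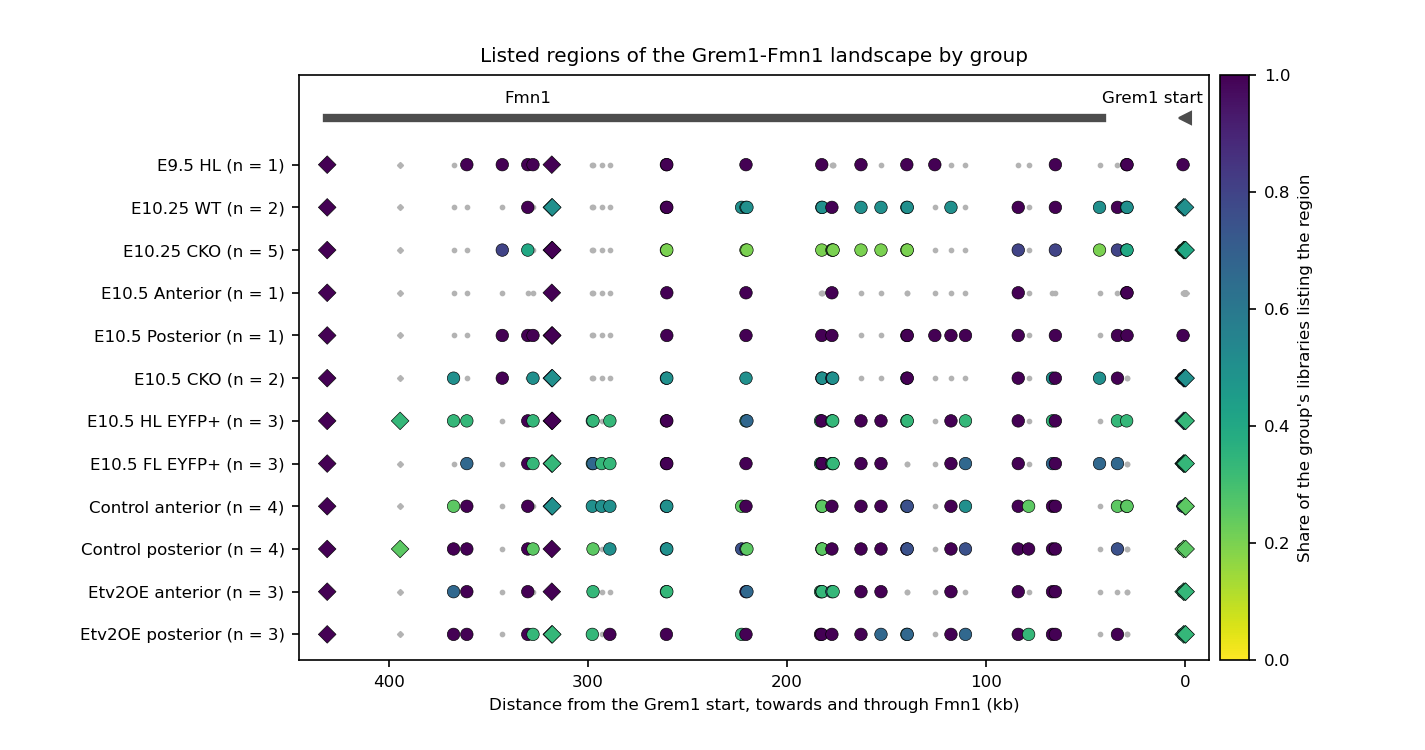
Regions of the Grem1-Fmn1 locus by distance from the Grem1 start (kb) in each group, coloured by the share of the group's libraries that list the region (grey dots are listed in none, diamonds are promoter regions, circles distal). The 118-kb site is dark in the EYFP+, Control, Etv2OE and E10.5 Posterior groups and grey in both CKO groups, E9.5 HL and E10.5 Anterior.

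The first comparison, between hindlimb EYFP+ and E10.5 CKO cells, set Etv2-expressing cells against posterior cells that lack Etv2. The 65.2-kb, 118-kb and 182.5-kb sites of the Grem1-Fmn1 locus ranked higher in the EYFP+ cells, and the promoter of Id1, which encodes a helix-loop-helix inhibitor induced by BMPs, ranked higher in the CKO cells. The 65.2-kb site ranked at 2.79%, 7.56% and 13.5% in the 3 E10.5 HL EYFP+ libraries and at 84.8% and 79.0% in the 2 E10.5 CKO libraries. The groups did not overlap, and every EYFP+ value lay in the upper part of its list. On the score used for testing, which is 1 for the top summit, falls to 0 at the end of the equal list length of 25000 and is 0 for an unlisted region, the means were 0.885 and 0.0519, a difference of 0.833 ± 0.0827 (SE; limma adjusted p = 0.0248). The 118-kb site ranked at 11.4%, 25.3% and 12.7% in the E10.5 HL EYFP+ libraries and was listed in neither E10.5 CKO library. The difference in score was 0.754 ± 0.108 (SE; limma adjusted p = 0.0403). It was likewise listed in 0 of 5 E10.25 CKO libraries, and in 1 of 2 E10.25 WT libraries, at 63.7%. The 182.5-kb site ranked at 36.3%, 26.1% and 41.6% in E10.5 HL EYFP+ and at 83.6% and 95.6% in E10.5 CKO, below the equal length in both CKO lists, with a difference of 0.510 ± 0.0758 (SE; limma adjusted p = 0.0429). These 3 sites passed the filter, a listing in at least 2 of the libraries compared, only through the EYFP+ libraries where they ranked high, and the 118-kb and 182.5-kb sites scored 0 in both CKO libraries, so their p-values rest on the spread among the EYFP+ libraries and on limma's pooled variance. The Id1 promoter was listed in all 5 libraries. It ranked at 51.5%, 43.2% and 55.1% in E10.5 HL EYFP+ and at 15.7% and 15.4% in E10.5 CKO, without overlap. Its score was lower in E10.5 HL EYFP+ by a difference of -0.516 ± 0.0692 (SE; limma adjusted p = 0.0354).

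In all, 3 of the 53 regions tested ranked higher in E10.5 HL EYFP+ and 1 lower, against 1.23% and 2.72% of the 35057 intervals tested (3.96% in either direction). The median difference over the 53 regions was 0.0620, and 0.00860 over all intervals. Sites just short of the threshold were the Bmp7 +6.32-kb site (29.8%, 17.2% and 33.4% against 62.4% and not listed; limma adjusted p = 0.0529) and the 34.0-kb site. The 34.0-kb site ranked at 38.9% and 19.8% in E10.5 CKO and was listed in E10.5 HL EYFP+ replicate 2 alone, at 66.9% (limma adjusted p = 0.0663). Within lists of equal length 4 regions were listed in all 3 E10.5 HL EYFP+ and neither E10.5 CKO library, and 3 the other way round, 7 of 53 against 13.6% of all intervals. The first 4 were the 118-kb, 163-kb, 182.5-kb and 330-kb sites and the other 3 the 34.0-kb, 139.5-kb and 343-kb sites. All 7 are Grem1-Fmn1 sites, as were 21 of the 53 regions tested, and the share split in this way was near the background. Of 4 muscle progenitor markers, E10.5 HL EYFP+ libraries listed 3, 4 and 3 promoters and E10.5 CKO libraries 1 each (Met, the best ranked, in every library), and the part of muscle progenitors in these differences was not tested. Leaving out any library except E10.5 HL EYFP+ replicate 3 left 0 calls among these regions, with the direction of all 4 unchanged, and without that replicate the 65.2-kb and 182.5-kb sites were called.

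**Figure D3:**
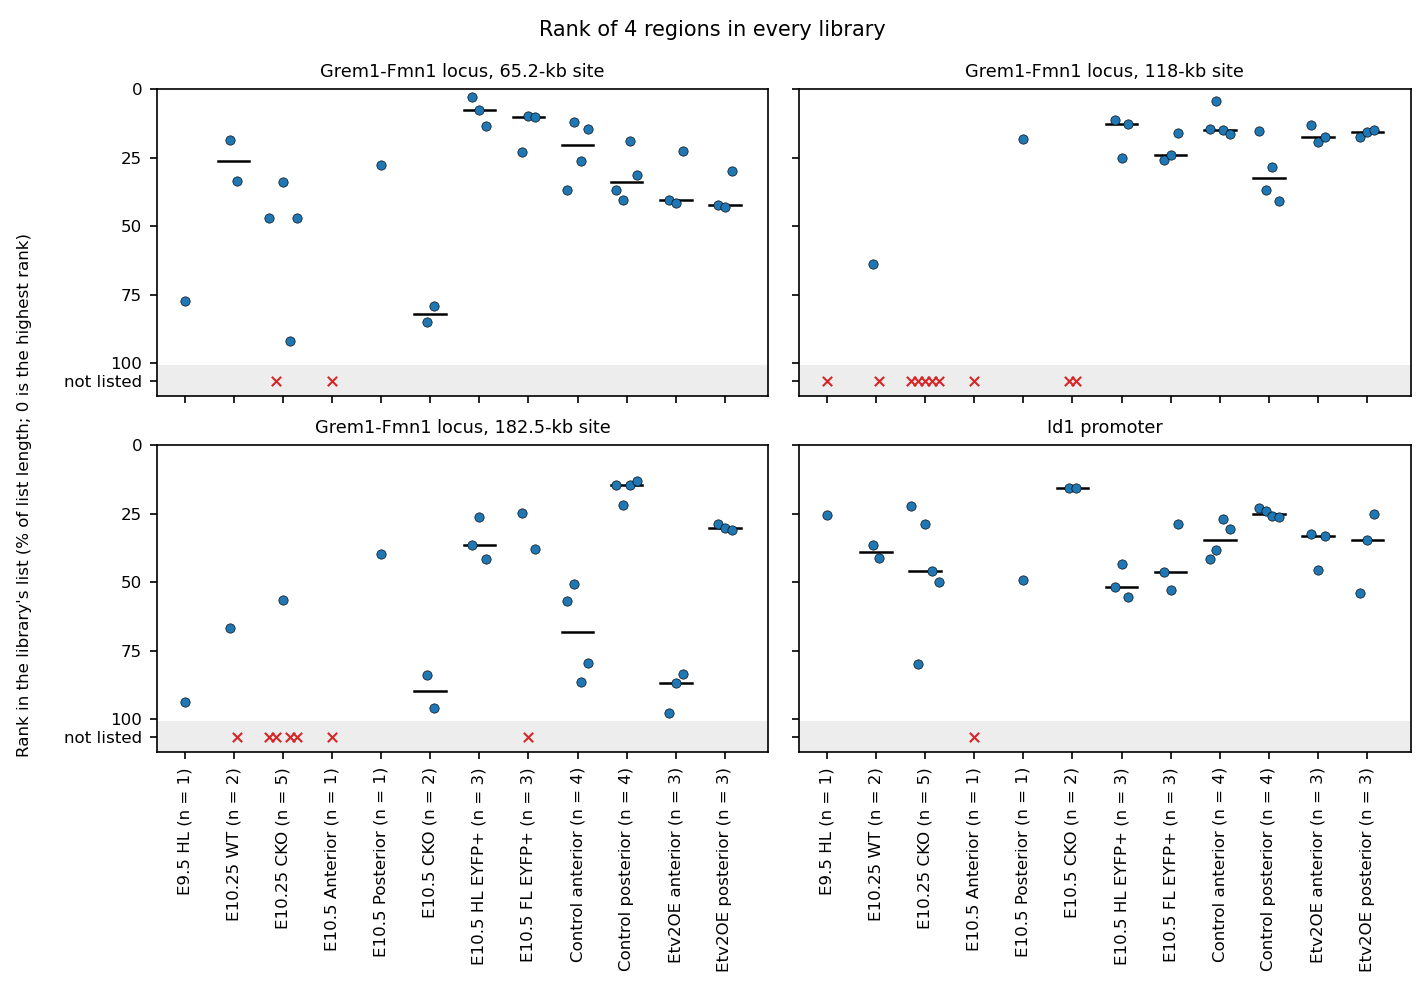
Rank of the 65.2-kb, 118-kb and 182.5-kb sites and of the Id1 promoter in every library as a percentage of the list's length (0 at the top is the highest rank, crosses in the grey band are not listed, bars are group medians, drawn where a group has more than 1 library and all of them list the region). The 118-kb site is in the grey band in all 7 CKO libraries, the 182.5-kb site ranks higher in posterior than in anterior libraries of the Control and Etv2OE groups, and the Id1 promoter is near 15% in both E10.5 CKO libraries.

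The second comparison of Etv2-lacking cells, E10.25 WT against E10.25 CKO, used the same posterior hindlimb tissue in both arms. The 65.2-kb site ranked at 18.7% and 33.5% in the WT libraries and at 47.2%, 33.9%, 92.0% and 46.8% in 4 CKO libraries, and was not listed in CKO replicate 2. All CKO ranks lay below both WT ranks, although CKO replicate 3 at 33.9% was next to WT replicate 2 at 33.5%. The mean scores at the equal length of 15000 were 0.349 and 0.0183, and the difference did not pass the threshold (limma adjusted p = 0.0894). With limma, 0 of the 36 regions tested were called, against 2.04% of 24278 intervals, and 3 of 36 had an unadjusted p under 0.05 (8.33%, against 11.8% of all intervals). The median difference was -0.116 over the 36 regions and -0.00203 over all intervals. The Bmp4 -46.1-kb site went the other way, with ranks of 24.4%, 94.1%, 25.3%, 16% and 20.1% in the CKO libraries against 74.0% and not listed in the WT libraries (adjusted p = 0.478). A site 3.29 kb downstream of the Id1 start ranked at 24.1%, 88.3%, 18.8%, 67.4% and 20.9% in CKO and at 57.7% and 63.8% in WT. Both were among the 4 regions listed, within lists of equal length, in all libraries of one group and none of the other, 2 in each direction, where 4.39% of all intervals were. CKO replicates 2 and 4 had the shortest lists. Without them the equal length rose to 30000, and 3 of 62 regions ranked lower in WT (limma): the Bmp4 -46.1-kb site (difference -0.724, adjusted p = 0.0162), the Id1 +3.29-kb site (-0.535, adjusted p = 0.0234) and a site 6.55 kb downstream of the Bmp7 start (-0.600, adjusted p = 0.0119). Of the 42848 intervals tested in this fit 1.37% were called lower. At most 1 WT library listed the Bmp4 -46.1-kb site, and neither WT library listed the Bmp7 +6.55-kb site, which scored 0 in both. These sites thus passed the filter only through the CKO libraries where they ranked high. This alternative was chosen after seeing the list lengths, and 1741 intervals of the genome were called in it in either direction against 495 in all 7 libraries. Without CKO replicate 4 the Msx2 promoter was called lower in WT (adjusted p = 0.0266), but its difference in all 7 libraries was not called (adjusted p = 0.416) and turned to 0.0368 with whole lists and 0.0252 at a q-value of 0.001. Without CKO replicate 5 an interval beside the 261-kb site, 260.4 kb from the Grem1 start, was called higher (adjusted p = 0.0104). Among all 7 libraries, 2 of 2 WT and 1 of 5 CKO libraries listed this interval within the equal length. For the Msx2 promoter these counts were 1 of 2 and 4 of 5. Each thus passed the filter only through the group where it ranked higher. Of 5 blood markers the WT libraries listed 3 and 2 promoters (Tal1 best ranked, Ptprc and Spi1 in none) and each CKO library 1, and the part of blood cells was not tested. Both WT libraries carry one date in their labels and each CKO library another, so date and genotype cannot be told apart.

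Forelimb and hindlimb EYFP+ cells were compared for differences between the limbs, and no region of these genes passed the test. With limma, 0 of 69 regions were called, against 0.048% of 45802 intervals, and 3 of 69 had an unadjusted p under 0.05 (4.35%, against 5.76% of all intervals). The smallest p belonged to an interval at 182.3 kb, beside the 182.5-kb site, which ranked at 24.6%, 40.9% and 37.8% in the forelimb and was listed in 0 of 3 hindlimb libraries (limma adjusted p = 0.296). The centres of the 2 intervals lie 209 bp apart and in forelimb replicates 1 and 3 the same summit was counted in both. The hindlimb libraries listed the 182.5-kb interval in its place, and with summits counted up to 250 bp from a centre the difference turned to -0.106. At Bmp7 the site 72.6 kb downstream of the start was listed in 3 of 3 hindlimb libraries at 52.0%, 73.7% and 48.0% and in 0 of 3 forelimb libraries. An interval 409 bp further downstream was listed in all 3 forelimb libraries at 75.2%, 59.2% and 59.7% and in no hindlimb library. Neither interval passed the test (limma adjusted p = 0.793 and 0.935), and both groups include their replicate 3 with mixed limb markers. Within lists of equal length 2 regions were listed in all forelimb and no hindlimb libraries and 0 the other way round, where 2.6% of all intervals were in either class. The forelimb and hindlimb libraries carry the same 3 replicate numbers, and the titles do not state whether libraries of one number were collected together. A fit with that number as a block called 0 regions and 0 of all intervals, where the fit without it called 22. Leaving out either replicate 3, the libraries with both hindlimb and forelimb markers, also left 0 regions called. Without both of them, a fit chosen after the markers were seen, limma called 0 of 52 regions and 0 of 37068 intervals, and 6 of 52 had an unadjusted p under 0.05 (11.5%, against 11.7% of all intervals). The 182.3-kb interval then differed by 0.534 (limma adjusted p = 0.322) and the Bmp7 +73.0-kb interval by 0.0796 (limma adjusted p = 0.80), while the Bmp7 +72.6-kb interval was no longer tested.

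Along the anterior-posterior axis 1 site, the 182.5-kb site in Fmn1, was called in both the Control and the Etv2OE embryos without a block. With the embryo as a block it was called in neither. In Control embryos it ranked at 56.9%, 50.7%, 86.4% and 79.3% in the anterior libraries and at 14.4%, 21.9%, 14.6% and 13.2% in the posterior libraries. The groups did not overlap, and each posterior library ranked above the anterior library of its own embryo. Mean scores at the equal length of 40000 were 0.252 and 0.788, a difference of -0.537 ± 0.102 (SE; limma adjusted p = 0.0463), and with the embryo as a block the adjusted p was 0.178. In Etv2OE embryos it ranked at 97.5%, 86.9% and 83.5% in the anterior libraries and at 28.8%, 30.3% and 30.7% in the posterior libraries. The 3 posterior ranks were close to each other and all anterior ranks lay near the end of the lists. Mean scores at the equal length of 30000 were 0.0181 and 0.589, a difference of -0.570 ± 0.0520 (SE; limma adjusted p = 0.0221), and with the embryo as a block the adjusted p was 0.312. Within that length 1 of the 3 anterior and all 3 posterior Etv2OE libraries listed the site. In the Etv2OE comparison it thus passed the filter only through the posterior libraries, where it ranked high. The Control and Etv2OE comparisons share no sample. In the single libraries of Shh-EGFP embryos the site ranked at 39.6% in E10.5 Posterior and was not listed in E10.5 Anterior, whose list was the shortest of the 32.

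In the Control embryos this was 1 of 82 regions tested (limma), and it ranked lower in the anterior. Of 66485 intervals 1.09% were called lower in the anterior and 2.02% in either direction, so the count of regions was near the background. In all, 8 regions had an unadjusted p under 0.05 (9.76%, against 12.5% of all intervals). A site at 139.8 kb ranked at 37.0%, 52.5%, 46.1% and 62.5% in the posterior libraries and was listed in anterior replicate 2 alone, at 95.6% (adjusted p = 0.0682). A site at 367 kb was listed in all 4 posterior libraries, at 32.9%, 25.2%, 22.1% and 37.3%, and in anterior replicate 2 alone, at 48.6% (adjusted p = 0.107). The 118-kb site ranked higher in the anterior, at 14.6%, 4.23%, 15.0% and 16.3% against 15.1%, 36.8%, 28.3% and 41.0% (adjusted p = 0.211), values that overlap in posterior replicate 1. In the Etv2OE embryos the 182.5-kb site was 1 of 61 regions tested, against 0.439% of 44436 intervals lower in the anterior and 0.806% in either direction. A site at 289 kb was listed in all 3 posterior and no anterior Etv2OE library, and it was 1 of 61 regions split in this way, where 4.02% of all intervals were. The corresponding count in the Control embryos was 1 of 82, the 139.8-kb site, against 2.07%. Anterior and posterior libraries of one number come from one embryo, and with the embryo as a block 64 intervals of the genome were called in the Control embryos against 1344 without, and 0 against 358 in the Etv2OE embryos. In the Control embryos the call of the 182.5-kb site held without anterior replicate 1 (adjusted p = 0.0489) or 2 (0.0310) and was lost without any other library, up to an adjusted p of 0.114, and in the Etv2OE embryos it was lost without any one library (adjusted p from 0.0507 to 0.0640). Of 6 ectoderm markers the Control anterior libraries listed 2, 1, 2 and 2 promoters and the posterior libraries 3, 4, 2 and 4 (Krt5 in none, and Sp8, Epcam, Cdh1 or Trp63 best ranked). The Etv2OE anterior libraries listed 2, 2 and 1 and the posterior libraries 2, 1 and 0, and the part of ectoderm in the differences was not tested. Control posterior lists were longer, at 51265 to 54676 summits against 40945 to 45762 in Control anterior. The part of list length in these marker counts was not tested.

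Overexpression of Etv2 was compared with Control separately in the anterior and the posterior, and no region of these genes passed the test in either. In the anterior, limma called 0 of 57 regions, against 0.134% of 46437 intervals, and 2 of 57 had an unadjusted p under 0.05 (3.51%, against 5.47%). No region was listed in all libraries of one group and none of the other there, where 0.81% of all intervals were. The smallest p belonged to a site 12.2 kb upstream of Id1, at 66.1%, 69.7% and 64.2% in Etv2OE and 73.5%, 68.0%, 79.0% and 64.1% in Control, which overlap (adjusted p = 0.449). In the posterior, limma called 0 of 69 regions, against 0.145% of 53793 intervals, and 4 of 69 had an unadjusted p under 0.05 (5.80%, against 6.21%). The site with the smallest p there was the one at 183.1 kb, the only Grem1-Fmn1 site with an ETS word, which was listed in all 3 Etv2OE posterior libraries at 60.6%, 66.9% and 74.4% and in none of the 8 Control libraries (difference 0.211, limma adjusted p = 0.340). It was also listed at 76.8% in Etv2OE anterior replicate 7 and at 86.1% and 86.2% in replicate 2 of the forelimb and hindlimb EYFP+ groups. It was 1 of 69 regions listed in all Etv2OE and no Control posterior libraries, a class or its opposite that held 0.922% of all intervals. The 118-kb site ranked at 17.6%, 15.7% and 14.8% in Etv2OE posterior and at 15.1%, 36.8%, 28.3% and 41.0% in Control posterior (adjusted p = 0.796). The test of whether overexpression acted differently in the anterior and the posterior called 0 of 72 regions (limma), against 0.00673% of 59444 intervals, and 5 of 72 had an unadjusted p under 0.05 (6.94%, against 4.81%). The smallest was the 367-kb site, with an anterior minus posterior score of 0.0785 in Etv2OE and -0.405 in Control (limma adjusted p = 0.761).

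Among the distal sites of the other 8 genes, 5 were listed in at least 29 libraries: the Bmp7 +15.2-kb, Bmp4 -46.1-kb and Msx2 -2.98-kb sites in 30, and the Bmp7 +6.32-kb site and a site 6405 bp upstream of Id1 in 29. The Bmp4 -46.1-kb site ranked highest in Control posterior, at 18.6%, 7.41%, 7.45% and 12.1%, and in E10.5 CKO, at 8.48% and 7.45%. In Control anterior it ranked at 24%, 13.3%, 38.6% and 27.6%, overlapping the posterior values, and in E10.5 HL EYFP+ at 71.9%, 38.4% and 22.8%. BMP4 is the main mesenchymal BMP ligand of the early limb bud, and this was the site of its locus listed in most libraries. The Bmp7 +15.2-kb site had a median rank of 22.2%, with its highest rank in Etv2OE anterior replicate 7 at 8.75%, and the Bmp7 +6.32-kb site a median of 29.8%. The Msx2 -2.98-kb site, upstream of a homeobox gene that responds to BMPs, had a median rank of 32% and was missing only from the 2 shortest E10.25 CKO lists. The Id1 -6.4-kb site had a median of 30.1% and the Id1 -1.09-kb site, listed in 25 libraries, one of 25.5%. The Msx1 site nearest its start, 1.32 kb upstream, was listed in 24 libraries, and a site 33.5 kb upstream in 27. Nog had no distal site listed in more than 23 libraries and Bmpr1a none listed in more than 13.

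**Figure D4:**
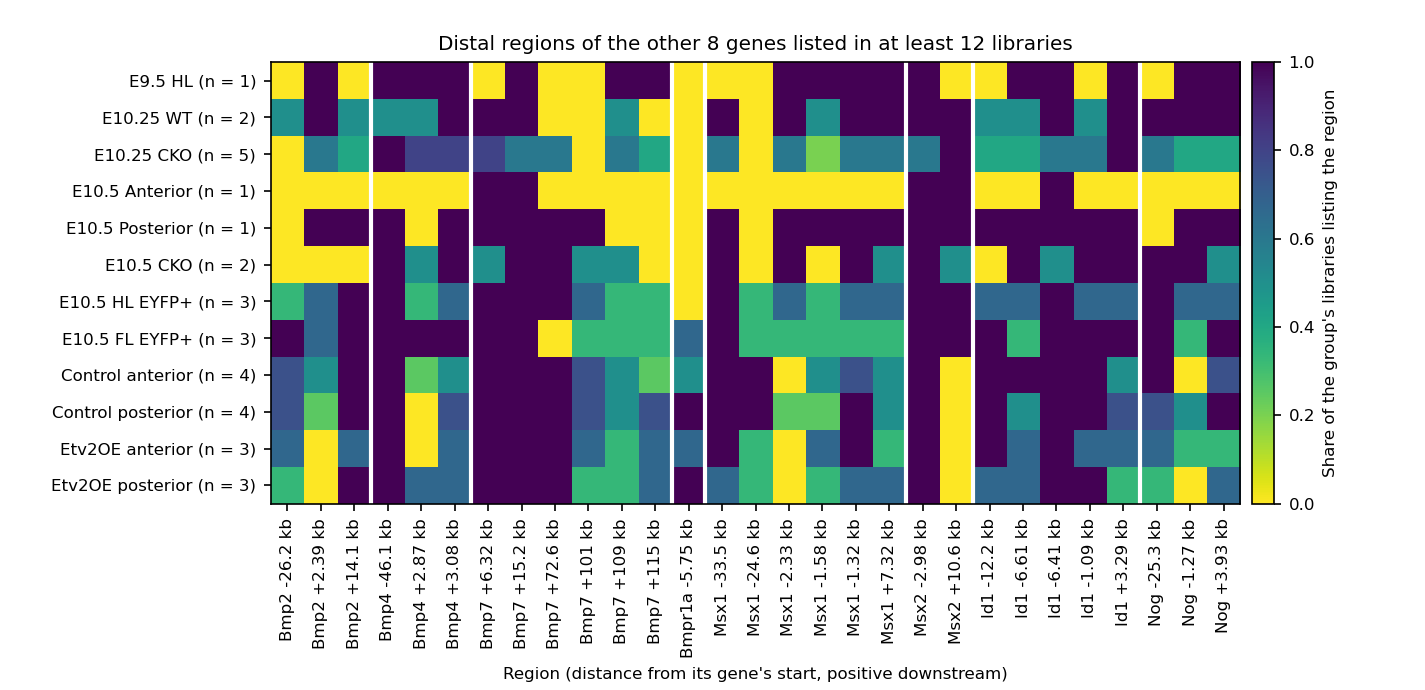
Share of each group's libraries that list each distal region of the other 8 genes, for regions listed in at least 12 libraries, by gene and distance from the gene's start (kb, positive downstream). The Bmp4 -46.1-kb, Bmp7 +15.2-kb and Msx2 -2.98-kb columns are filled in nearly every group, and the Msx2 +10.6-kb column is empty in the 4 Control and Etv2OE groups.

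A further 29 genes of the pathway were followed by their promoters: 6 ligands, 5 receptors, 7 antagonists, 6 transducers and their regulators, and 5 targets. Receptor promoters were listed almost everywhere, Bmpr2, Acvr2a and Acvr2b in 32 libraries and Bmpr1b and Acvr1 in 31, at median ranks from 13.5% for Acvr1 to 28.4% for Bmpr1b. Gdf5, a ligand of the later joints, was listed in 1 library. Between the hindlimb EYFP+ and E10.5 CKO cells, 24 of the 29 genes had a tested promoter interval, of which 0 were called higher and 1 lower, against 1.23% and 2.72% of all intervals, a share near the background. The promoter called was that of Smad6, an inhibitor induced by BMP signalling. The Smad6 promoter ranked at 68.7% and 54.2% in E10.5 HL EYFP+, with 1 library not listing it, and at 23.9% and 33.2% in E10.5 CKO (difference -0.573 ± 0.0741, SE; limma adjusted p = 0.0336). In the comparisons between the limbs, between anterior and posterior and between Etv2OE and Control cells, limma called 0 promoters of the 29 genes. Of all intervals, 0.048% were called between the limbs. Between anterior and posterior 2.02% were called in Control and 0.806% in Etv2OE embryos. Between Etv2OE and Control 0.134% were called in the anterior and 0.145% in the posterior. A count of 0 among at most 29 genes is near these shares.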

How the data were processed

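ATAC-seq, which maps open chromatin by transposase insertion, had been run on 32 mouse limb bud libraries. The authors mapped reads to mm10 with Bowtie2 2.2.4 (per the submitters' notes), kept uniquely aligned reads, removed duplicates and called summits in each library with MACS2 (for its version and settings, not given in the sources used here). Each summit's deposited score is the -log10 of the q-value. Its lowest values corresponded to a q-value of 0.05. Read counts were not analysed here, so depth is unknown, and intervals for counting error were not computed.

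Summits of all lists were placed on 1 set of 200-bp intervals, and a region counted as listed in a library with a summit within 200 bp of its centre, so that 1 summit could count for 2 neighbouring intervals. Lists were ranked by score with average ranks for ties and truncated, per comparison, to the largest common length in steps of 5000. Each interval scored 1 at the top rank, falling evenly to 0 at the common length, and 0 if not listed. Intervals listed in at least 2 compared libraries were fitted together with limma 3.58.1 (R 4.3.3), without a block, with Benjamini-Hochberg adjustment at 0.05. P-values measure the spread between libraries, which may in part be technical where the labels name no separate embryos. Tables were made with pandas 2.3.3 and sequences were read with samtools 1.23.1. Group came from the labels, and the letters A and P in the Control and Etv2OE labels were read as anterior and posterior.

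The 10 genes, the gene lists and the tests were chosen with earlier results of these data known. Named regions were, for each gene, the promoter region listed in most libraries and the nearest distal region. To these were added distal regions listed in at least 28 libraries, regions past the threshold in each comparison (the 3 smallest p-values where none passed) and up to 3 regions per comparison listed in all libraries of one group and none of the other. The 343-kb and 163-kb sites, the Msx2 +10.6-kb site and the other sites named beyond this rule were chosen after their values were seen. On simulated data with 200 changed intervals, loss from every library of one group was recovered for 61.5% (E10.25, 24278 intervals) to 92.0% (Control anterior against posterior, 66485 intervals). A shift of the score by 0.5 was recovered for 0% (hindlimb EYFP+ against E10.5 CKO, 35057 intervals) to 9.00% (Control anterior against posterior), so smaller shifts in rank were mostly not detectable. Intervals left unchanged were called too. With loss these calls numbered 47 beside 134 recovered (hindlimb EYFP+ against E10.5 CKO), 46 beside 184 (Control anterior against posterior) and 30 beside 123 (E10.25). The fewest were 13 beside 157 (Etv2OE anterior against posterior). With the shift they were 22 beside 18 in Control anterior against posterior and 0 in hindlimb EYFP+ against E10.5 CKO. False calls can thus exceed the share set by the adjustment.

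Anterior and posterior libraries of one embryo share a number in the labels, and their deviations from the group means correlated at 0.00380 to 0.0470 in Control and 0.0213 to 0.0401 in Etv2OE embryos. Forelimb and hindlimb libraries of one replicate number correlated at 0.184 to 0.421. Fits with these numbers as a block were run as alternatives, with other list lengths, summit windows, filters, a stricter q-value of 0.001, the logarithm of rank and leave-one-out fits. The promoter sequence of Id1 was not used here, and the result of the further pathway genes in E10.25 WT against CKO is not reported here.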

Additional observations from a re-analysis of the deposited data

Results flagged for a closer look

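Ranks of the regions named by rule were examined for libraries that stood apart within groups of 4 or 5, in 56 group and region combinations, and 7 of them held such a library, where chance alone gives about 1 in 20. All values are ranks as a percentage of the list's length. In Control anterior, replicate 3 ranked the Bmp4 promoter at 74.7%, where the other libraries had 92.2% to 93.7%, and the Fmn1 promoter at 0.852%, where the others had 0.444% to 0.496%. Control anterior replicate 2 ranked the 118-kb site at 4.23%, where the others had 14.6% to 16.3%. In Control posterior, replicate 2 ranked the 182.5-kb site at 21.9%, where the others had 13.2% to 14.6%, and the 261-kb site at 23.7%, where the others had 38.8% to 41.4%. Control posterior replicate 1 ranked the Id1 -1.09-kb site at 52.3%, where the others had 15.6% to 21.5%. In E10.25 CKO, replicate 2, which had the shortest list of its group, ranked the Bmp4 -46.1-kb site at 94.1%, where the others had 16% to 25.3%.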

How the results depend on the processing

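Counts of called regions among those of the 10 genes were small and moved with the processing. In hindlimb EYFP+ against E10.5 CKO cells, where 4 were called, 2 were called with lists cut to 0.5 of the equal length, 1 with the 10000 highest-ranked summits, 2 with whole lists, 0 on the logarithm of rank and 0 to 2 with 1 library left out. Of these 4, the 65.2-kb site was called in 6 of 8 settings (leaving libraries out aside) and 1 of 5 leave-one-out fits, the 118-kb site in 4 of 8 and 0 of 5, the 182.5-kb site in 4 of 7 and 1 of 5, and the Id1 promoter in 5 of 8 and 0 of 5. Their direction held in all fits that gave a value. Other settings added calls. With summits within 100 bp the Bmp4 -46.1-kb site was called lower in EYFP+ cells (difference -0.875, limma adjusted p = 0.0223, against 0.283 in the main fit). In that setting the Bmp7 +6.32-kb site was called higher (0.624, limma adjusted p = 0.0352). With summits within 250 bp the 182.3-kb interval was called higher (limma adjusted p = 0.0432). In E10.25 WT against CKO, where 0 were called, 0 to 1 were called with 1 library left out and 3 without the 2 shortest lists. In Control anterior against posterior, where 1 was called, the count was 0 with the 10000 highest-ranked summits, 2 with whole lists, 0 with summits within 100 bp, 0 with no filter beyond 1 library, 3 at a q-value of 0.001 and 0 to 2 with 1 library left out. In Etv2OE anterior against posterior, where 1 was called, the count was 0 with lists cut to 0.5 of the equal length, 0 with the 10000 highest-ranked summits, 0 on the logarithm of rank and 0 with any 1 library left out. In the other comparisons 0 were called in each setting. The median number of regions per library was 56 in whole lists and 11 in the 10000 highest-ranked summits. The cause of these changes was not tested.

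With the embryo as a replicate block, 0 regions were called in Control anterior against posterior and 0 in Etv2OE anterior against posterior. With the replicate number as a block, 0 were called in forelimb against hindlimb EYFP+ cells. The block changed no other call among these regions.

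Some directions turned. The Msx2 promoter in E10.25 WT against CKO became 0.0368 with whole lists and 0.0252 at a q-value of 0.001. With summits within 250 bp the interval at 182.3 kb in forelimb against hindlimb became -0.106, and the Msx1 promoter region 113 bp downstream of the start in Etv2OE against Control posterior became -0.0802. None of these was called in the forms given here, and the Msx2 promoter was called, of the settings run, only without CKO replicate 4.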

Other observations

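A site 10.6 kb downstream of the Msx2 start (chr13:53462418-53462617, mm10, 64.5% GC) was listed in 16 of the 18 libraries outside the Control and Etv2OE experiment and in 0 of its 14 libraries. The lists of the 14 held 32666 to 54676 summits and those of the 18 held 13763 to 48381. Its ranks in the 18 libraries were 73.7%, 65.2% and 33.3% in E10.5 FL EYFP+, 59.1%, 59.4% and 20.8% in E10.5 HL EYFP+, 36.5%, 80.9%, 46.7%, 55.2% and 61.4% in E10.25 CKO 50.4% and 53.0% in E10.25 WT, 69.0% in E10.5 CKO replicate 2, 54.5% in E10.5 Posterior and 98.8% in E10.5 Anterior. It was not listed in E9.5 HL and E10.5 CKO replicate 1. With the 343-kb site it was 1 of 2 regions listed in none of the 14 and at least 8 of the 18 libraries, a class that held 0.882% of all intervals, and 0 regions showed the reverse with at least 8 of the 14. The site was singled out after its values were seen, and genotype, cell preparation and library batch cannot be told apart between these sets. The Msx1 -2.33-kb site was listed in 12 of the 18 and 1 of the 14 libraries, and a site 5.75 kb upstream of Bmpr1a in 2 of the 18 and 11 of the 14.

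Of 31 cell type markers, 15 had a tested promoter interval in Control anterior against posterior, and 1 was called, that of the mesenchyme gene Lhx9, against 2.02% of all intervals. In the other comparisons between groups limma called 0 of the markers tested. Of all intervals, from 0.048% (between the limbs) to 3.96% (hindlimb EYFP+ against E10.5 CKO) were called there. The number of markers tested in each is not given here, so 0 calls say little about them. The Lhx9 promoter ranked at 25.4%, 41.0%, 33.5% and 48.1% in Control anterior. In posterior replicates 1 and 3 it ranked at 59.4% and 79.3%, and posterior replicates 2 and 4 did not list it (limma adjusted p = 0.0169). Of the posterior libraries only replicate 1 ranked it within the equal length of 40000. It thus passed the filter only through the anterior libraries where it ranked high. LHX9 is a LIM homeodomain protein of the limb mesenchyme.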
